A study of Mus musculus with 14 samples.

Results

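Etv1, Etv4 and Etv5 form the PEA3 subfamily of ETS transcription factors, and their 3 probe sets, found by gene symbol and Entrez number, were 3 of the 21212 probe sets measured on 14 Affymetrix mouse Gene ST 1.0 arrays of lung RNA. The Entrez gene numbers are 14009 for Etv1, 18612 for Etv4 and 104156 for Etv5. The arrays held 4 Atxn1L -/- mice with 4 WT controls and 3 Atxn1 -/- mice with 3 WT controls, all C57BL/6J at P6 (postnatal day 6). Mice came from heterozygous intercrosses and are given as knockout and WT pairs, but no label ties an array to its pair or states the deleted part of either gene or the sex of a mouse. Whole lung was frozen and extracted, so each level is a sum over all lung cells, in which fewer cells of a type and less RNA per cell cannot be told apart. Levels are log2 values from RMA (background correction, quantile normalization and probe summary), which the authors ran separately for the 8 arrays of the Atxn1l set and the 6 arrays of the Atxn1 set. A level was therefore compared only within its set, and never between genes, since probes of different genes differ in brightness.

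ETS factors recognise DNA with a GGAA core, and the PEA3 factors act as activators at the end of the receptor tyrosine kinase, RAS and ERK pathway. Capicua, encoded by Cic, represses their genes until ERK signalling relieves it, and ataxin-1 and ataxin-1-like (Atxn1 and Atxn1l) are partners of Capicua in that complex. In the growing mouse lung, Etv4 and Etv5 are known from the distal epithelium, where FGF10 from the mesenchyme acts on FGFR2, and Etv5 is later found in alveolar type 2 cells. Etv1 is best known from neurons and heart muscle. The comparison of each knockout with its own WT lungs asks whether these genes are higher when a Capicua partner is lost.

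Promoter windows of Etv1 and Etv5 (2 of the 3 members, RefSeq, GRCm38.p6) were searched on both strands of the 300 bases around each start. The letters sought were TGAATGAA and TGAATGGA, 2 forms of the 8-letter Capicua site, and ACCGGAAGT, an ETS site. Other forms of the Capicua site were not part of this search. No such run of letters lay in the 2 windows of Etv1 or the 2 windows of Etv5. Of 32851 windows of all genes, 1.30% held TGAATGAA, 1.21% TGAATGGA and 1.10% ACCGGAAGT. The 6-letter core TGAATG, which both of the searched Capicua forms contain, was added after the sequences were seen. It occurred 3 times in 1 of the Etv5 windows and in none of the Etv1 windows, against 12.7% of all windows with a match and 0.170% with 3 or more. All 3 matches read TGAATGGG on their own strand, at positions -242, -198 and -129 relative to the start, each that of the first letter of the core as printed. Over all genes 1.08% of windows held TGAATGGG, and 1 window held it 3 times, this one of Etv5. The letters were chosen on this window, so these shares describe it and do not show a site. The 250 bases before that Etv5 start and before the outermost Etv1 start are shown for the core, which is in capitals (CATTCA where it lies on the other strand).
Etv5, chr16:22438369-22438618, minus strand, GRCm38.p6: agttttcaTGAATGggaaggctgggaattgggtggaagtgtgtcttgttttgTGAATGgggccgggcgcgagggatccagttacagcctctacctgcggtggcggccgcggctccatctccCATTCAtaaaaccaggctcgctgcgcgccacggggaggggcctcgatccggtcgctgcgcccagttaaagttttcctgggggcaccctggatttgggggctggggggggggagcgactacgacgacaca
Etv1, chr12:38779832-38780081, plus strand, GRCm38.p6: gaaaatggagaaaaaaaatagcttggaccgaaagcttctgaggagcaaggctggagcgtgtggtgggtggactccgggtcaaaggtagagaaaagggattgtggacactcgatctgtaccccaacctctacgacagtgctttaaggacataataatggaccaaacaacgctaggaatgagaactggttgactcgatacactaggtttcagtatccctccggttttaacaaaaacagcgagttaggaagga

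The arrays matched their labelled tissue, with log2 levels of 13.87 to 13.94 in Atxn1l knockouts and 13.92 to 13.96 in their WT lungs for Sftpc, the surfactant protein of alveolar type 2 cells. Ager, of alveolar type 1 cells, lay between 12.50 and 12.67 on these arrays, and Pecam1, of endothelium, between 12.06 and 12.25. On the arrays labelled Atxn1 knockout Sftpc was at 14.29 to 14.31, against 14.22 to 14.42 on their WT arrays. Atxn1l itself was at 6.68 to 7.05 in its knockouts, against 9.29 to 9.59 in their WT lungs (log2 change -2.58, SE 0.09, limma adjusted p = 1.18e-06). Atxn1 was at 10.99 to 11.04 on the arrays labelled Atxn1 knockout and at 10.92 to 11.14 on their WT arrays. Its probe set may lie outside the deleted part, so it does not check that label. Xist, expressed from the inactive X chromosome, was low on 1 of 4 Atxn1l knockout and 2 of 4 WT arrays, and on 1 of 3 arrays labelled Atxn1 knockout and 2 of 3 of their WT arrays, so the sexes were unevenly spread. Atxn1l knockout replicate 1 had a neutrophil marker mean of 10.35, above 8.10 to 9.07 on the rest of its set, and Atxn1 WT replicate 3 had 10.82, above 8.91 to 9.43 on the rest of its own.

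In lungs without Atxn1l, Etv4 rose 1.40-fold, while the values for Etv1 and Etv5 were 0.99-fold and 1.05-fold with adjusted p-values far from the threshold. Etv4 was the only member of the 3 past an adjusted p of 0.05, where 0.0424% of all probe sets were called in either direction, 0.0236% as higher and 0.0189% as lower. Changes are knockout minus WT on the log2 scale from limma over all 21212 probe sets, two-sided, with the Benjamini-Hochberg adjustment over all of them.

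The log2 levels of Etv4 were 8.39, 8.51, 8.38 and 8.40 in the 4 Atxn1l knockouts, against 7.92, 7.96, 7.98 and 7.89 in their 4 WT lungs. The lowest knockout lay above the highest WT lung, and no array of either group came close to the other. Groups were separate for 5.32% of all probe sets in this set of arrays, with knockouts above WT for 2.76% and below for 2.56%. Means were 8.42 ± 0.06 in knockouts and 7.94 ± 0.04 in WT lungs (SD, n = 4 each), a log2 change of 0.48 (SE 0.05, 95% confidence interval 0.37 to 0.59, limma adjusted p = 0.0130). In fold this is 1.40, with an interval of 1.30 to 1.51. An exact two-sided permutation test over the arrays gave p = 0.0286, the smallest that 4 against 4 arrays allow, and 0.171 after adjustment over the 6 tests of 3 members in both sets. In this family of tests no adjusted p below 0.0571 can be reached, so the adjusted value could not pass. Etv4 had the 3rd smallest p-value of the 21212 probe sets but only the 152nd largest change. Its residual SD between arrays of a group was 0.05, below the median of 0.09 over all probe sets, and 12.3% of probe sets varied less.

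The size of the Etv4 change hardly depended on any array, from 0.45 to 0.50 when each of the 8 arrays was left out, but its call did. The adjusted p was 0.0701 without knockout replicate 4, 0.0624 without WT replicate 1 and 0.0549 without WT replicate 2, and between 0.0140 and 0.0498 without each of the other 5 arrays. With the replicate number as a block the change was 0.48 and the adjusted p 0.0880, in a fit that called 2 probe sets in all. With the Xist level as a covariate the change was 0.48 (adjusted p = 0.0221).

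**Figure D1:**
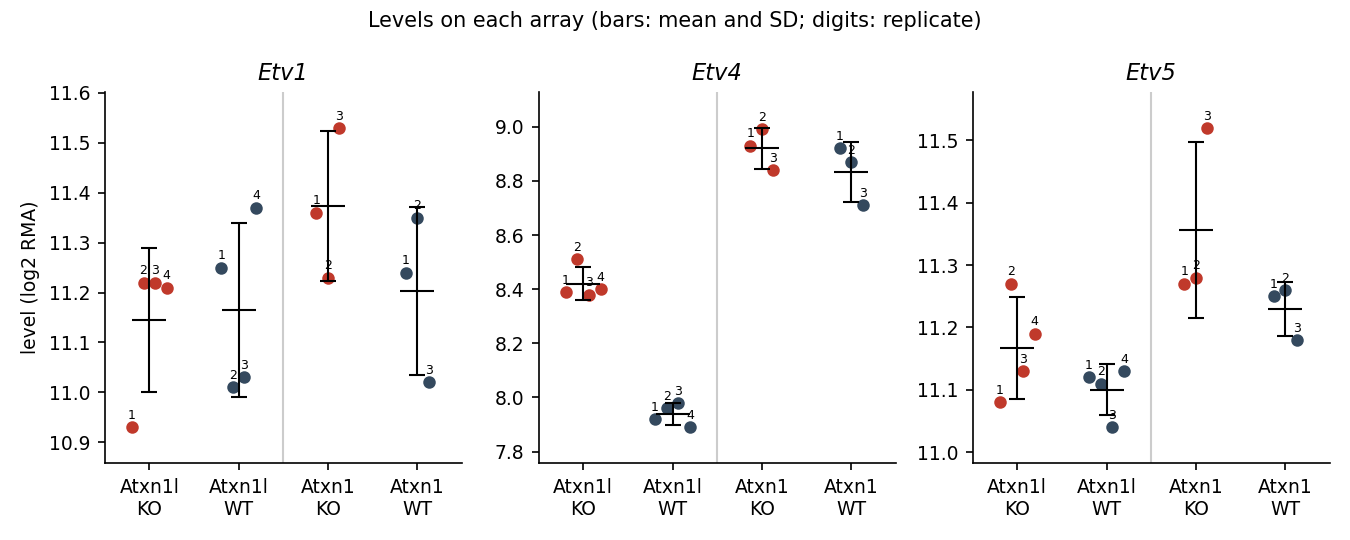
Log2 RMA levels of Etv1, Etv4 and Etv5 on every array, with knockout arrays left of their WT arrays and the Atxn1l set left of the grey line. Points are arrays, digits are replicate numbers, and bars are the mean and SD. The 4 Atxn1l knockouts lie at 8.38 to 8.51 for Etv4, all above their 4 WT arrays at 7.89 to 7.98, and only the Etv5 groups of the Atxn1 set are also separate.

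Etv5, the member best known from alveolar type 2 cells, had log2 levels of 11.08, 11.27, 11.13 and 11.19 in Atxn1l knockouts, against 11.12, 11.11, 11.04 and 11.13 in their WT lungs. The groups overlapped: knockout replicate 1 lay below 3 of the WT lungs, and replicate 2 was the highest of the 8. The log2 change was 0.07 (SE 0.05, 95% confidence interval -0.05 to 0.19, limma adjusted p = 0.777). The interval spans 0.97-fold to 1.14-fold, so an increase of the size seen for Etv4 lay outside it.

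Etv1 levels were 10.93, 11.22, 11.22 and 11.21 in Atxn1l knockouts, against 11.25, 11.01, 11.03 and 11.37 in their WT lungs. All knockouts lay inside or below the range of the WT lungs, which spread more widely than those of Etv4 or Etv5. The log2 change was -0.02 (SE 0.10, 95% confidence interval -0.23 to 0.20, limma adjusted p = 0.983). The residual SD of Etv1 was 0.16, above that of 87.5% of probe sets, and the interval is correspondingly wide, from 0.85-fold to 1.15-fold. The lowest value, 10.93, was that of knockout replicate 1, the array with the high neutrophil mean and the only low Xist level among the knockouts. Without this array the change was 0.05 (adjusted p = 0.915).

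Whether Etv4 changed more than the other members was tested by its difference from each on the same array. This cancels an offset that both genes share on an array, but not one that depends on the level. Etv4 minus Etv5 was -2.79 to -2.70 in Atxn1l knockouts and -3.24 to -3.06 in their WT lungs, without overlap. This difference was 0.41 higher in the knockouts (exact two-sided permutation p = 0.0286, adjusted p = 0.0857 over 6 tests). Etv4 minus Etv1 was -2.84 to -2.55 in knockouts and -3.49 to -3.04 in WT lungs, again without overlap, and 0.50 higher in the knockouts (exact permutation p = 0.0286, adjusted p = 0.0857). Both tests reached the smallest p that these arrays allow. No pair could pass 0.05 after adjustment, since 6 tests at their smallest p would still give 0.0571. Etv5 minus Etv1 overlapped between the groups, at -0.09 to 0.15 in knockouts and -0.24 to 0.09 in WT lungs (difference 0.09, exact permutation p = 0.371, adjusted p = 0.743).

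**Figure D2:**
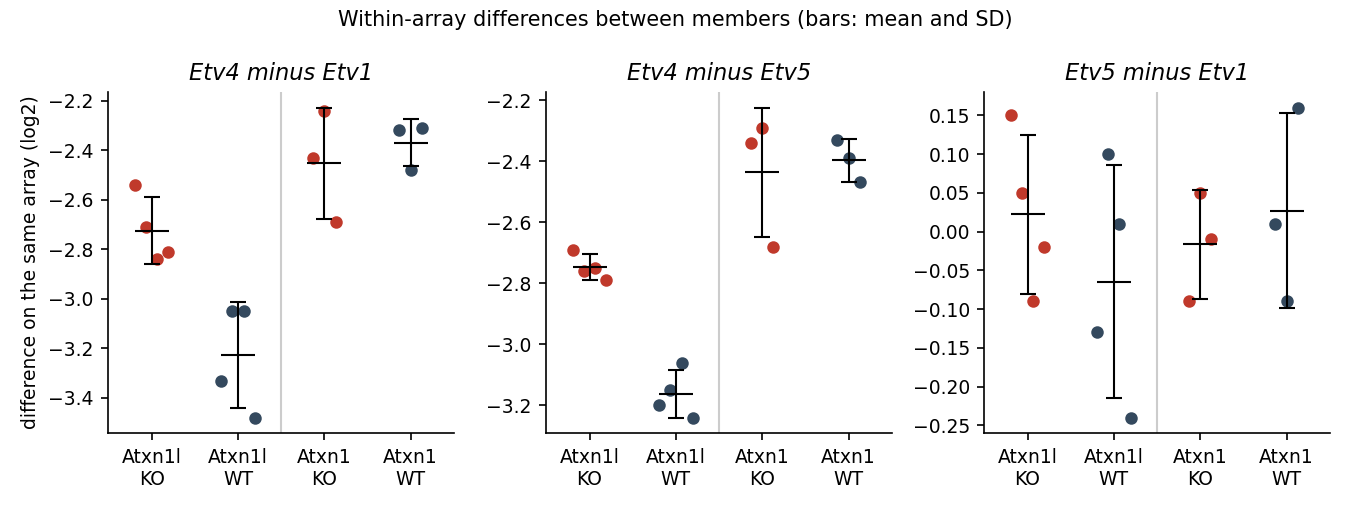
Differences between the log2 levels of 2 members on the same array, with knockout arrays left of their WT arrays and bars for the mean and SD. In the Atxn1l set Etv4 minus Etv5 lies at -2.79 to -2.70 in knockouts and -3.24 to -3.06 in WT lungs, whereas the groups of the Atxn1 set overlap for all 3 differences.

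On the arrays labelled Atxn1 knockout, no PEA3 gene passed, nor did any other probe set (0.0% called at an adjusted p under 0.05, 258 at an unadjusted p under 0.05). All 3 members had values above 0, with a median log2 change of 0.13, where 47.3% of all probe sets were above 0 and the median was -0.004. With 3 arrays against 3, an exact permutation test cannot give a p below 0.1.

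Etv5 levels were 11.27, 11.28 and 11.52 on the arrays labelled Atxn1 knockout, against 11.25, 11.26 and 11.18 on their WT arrays. The 3 knockout arrays lay above the 3 WT arrays, as did those of 2.85% of probe sets (1.9% lay below and 4.75% were separate either way), but knockout replicates 1 and 2 exceeded the highest WT array by very little. The log2 change was 0.13 (SE 0.08, 95% confidence interval -0.05 to 0.31, limma adjusted p = 0.9999), and 0.05 without knockout replicate 3. The exact permutation test gave p = 0.1, and 0.3 after adjustment over the 6 tests.

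Etv1 levels were 11.36, 11.23 and 11.53 on the arrays labelled Atxn1 knockout, against 11.24, 11.35 and 11.02 on their WT arrays. Knockout replicate 3 was the highest and WT replicate 3 the lowest, and the rest were interleaved. The log2 change was 0.17 (SE 0.11, 95% confidence interval -0.08 to 0.42, limma adjusted p = 0.9999). It was 0.09 without knockout replicate 3 and 0.08 without WT replicate 3. The latter is the array with the high neutrophil mean, and the part of neutrophils in the Etv1 value was not tested.

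Etv4 levels were 8.93, 8.99 and 8.84 on the arrays labelled Atxn1 knockout, against 8.92, 8.87 and 8.71 on their WT arrays. The groups overlapped, with knockout replicate 3 below 2 of the WT arrays. The log2 change was 0.09 (SE 0.07, 95% confidence interval -0.08 to 0.26, limma adjusted p = 0.9999), which in fold spans 0.95 to 1.20. Without WT replicate 3 it was 0.03. Within arrays, the difference between Etv4 and Etv5 changed by -0.04 (exact permutation p = 0.9), that between Etv4 and Etv1 by -0.08 (exact permutation p = 0.7) and that between Etv5 and Etv1 by -0.04 (exact permutation p = 0.7). With array weights estimated by limma the log2 changes were 0.19 for Etv4 (adjusted p = 0.139) and 0.34 for Etv1 (adjusted p = 0.138), without passing. In that fit WT replicate 3 carried a weight of 6.38, against 0.163 to 1.47 for the other 5 arrays.

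The effect on Etv4 was 0.39 larger on the log2 scale in the Atxn1l knockout than in the Atxn1 knockout (SE 0.08, 95% confidence interval 0.21 to 0.57), from a single limma model in which each of the 4 groups on the 14 arrays had its own mean. Its unadjusted p was 0.000334, the 7th smallest of 21212, and its adjusted p was 0.866, so the difference did not pass over all probe sets. This contrast called 0.00943% of probe sets, Atxn1l and Chst4, which encodes a sulfotransferase, both with the lower effect in the Atxn1l knockout. The differences were -0.19 for Etv1 (95% confidence interval -0.52 to 0.15) and -0.06 for Etv5 (95% confidence interval -0.25 to 0.13), each with a limma adjusted p of 0.9996.

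**Figure D3:**
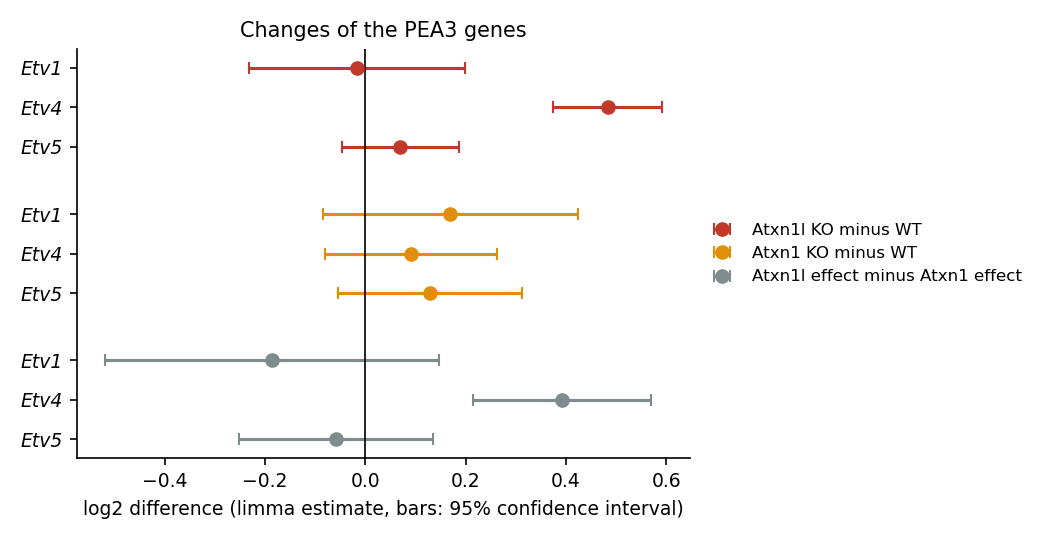
Log2 changes of the 3 members from limma with 95% confidence intervals, for Atxn1l knockout minus WT, Atxn1 knockout minus WT, and the Atxn1l effect minus the Atxn1 effect. The interval of Etv4 in the Atxn1l knockout runs from 0.37 to 0.59, while those of Etv1 and Etv5 and all 3 in the Atxn1 knockout include 0.

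Relations between members were computed within each set. In the Atxn1 set, Etv1 and Etv5 had a Pearson r of 0.86 over the 6 arrays (exact permutation p = 0.042, adjusted p = 0.167 over 4 relations) and a Spearman rho of 0.66 (exact permutation p = 0.175, adjusted p = 0.350). Without the 2 arrays farthest from the Etv1 median r was -0.09, so the relation rested on knockout replicate 3 and WT replicate 3. In the Atxn1l set the same pair had an r of 0.51 over 8 arrays (exact permutation p = 0.188, adjusted p = 0.376) and a rho of 0.55 (exact permutation p = 0.171, adjusted p = 0.350), and an r of 0.39 without the 2 farthest arrays. In the Atxn1 set Etv4 had an r of 0.38 with Etv1 (exact permutation p = 0.444, adjusted p = 0.593, rho 0.03) and of 0.15 with Etv5 (exact permutation p = 0.836, adjusted p = 0.836, rho 0.37). Without 2 arrays both turned negative, at -0.76 and -0.73. No r is given for Etv4 in the Atxn1l set, where its groups were separate. Each r pools the knockout and WT arrays of its set. The Etv5 groups of the Atxn1 set were also separate, by little, so the r values with Etv5 there include that step.

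**Figure D4:**
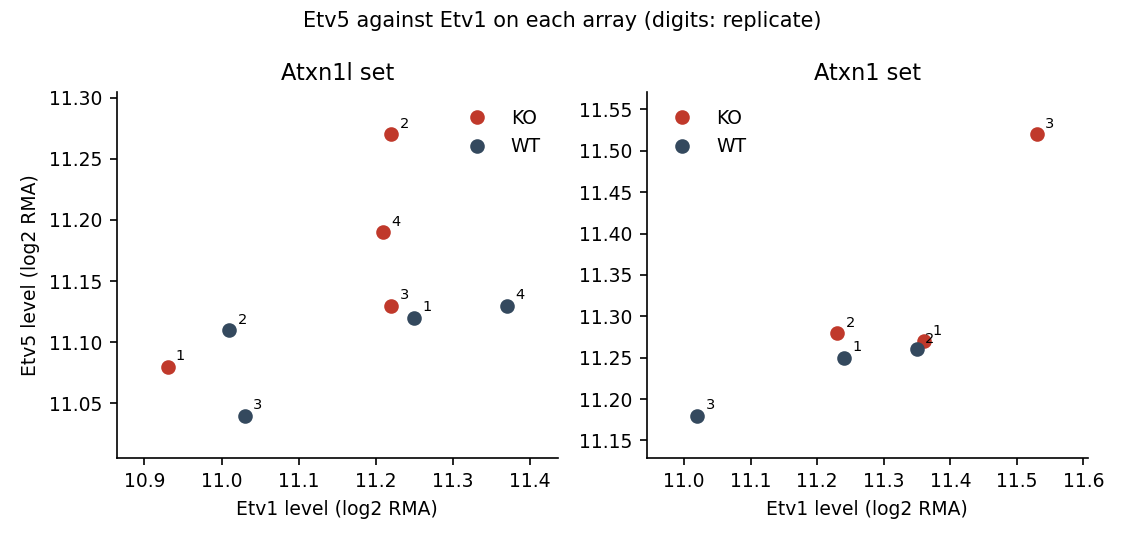
Etv5 level against Etv1 level on each array of the Atxn1l set (left) and the Atxn1 set (right), both in log2 RMA units, with replicate numbers beside the points. In the Atxn1 set knockout replicate 3 (11.53 and 11.52) and WT replicate 3 (11.02 and 11.18) lie apart at the ends and the other 4 arrays between them.

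The genes closest to each member were ranked by Pearson r over the 14 arrays, after subtracting from each value the mean of its own set, among 18784 genes. These are descriptions, and the arrays share their groups and normalization. Closest to Etv1 were Lef1 (r = 0.886), Pde7b (0.875), Npr2 (0.867), Nox1 (0.866) and Ebf1 (0.850). Their r stayed at 0.839 to 0.913 when each value was set against the mean of its own group. Closest to Etv5 were Cry2 (0.832), Rgs9 (0.830), Lmcd1 (0.814), Pdlim5 (0.810) and Zswim4 (0.807), with 0.691 to 0.844 against group means, and Etv1 was 38th in this order (0.697). Closest to Etv4 were Olfr69 (0.902), Chp2 (0.884), Hal (0.881), Vars (0.880) and Nell1 (0.876). Set against group means their r was 0.110 to 0.623, below the values that include the step between Atxn1l knockouts and WT lungs. Hal also passed in that comparison (log2 change 0.59, limma adjusted p = 0.0344). Over the 7 WT arrays alone, none of the 5 closest genes of any member was among the 5 closest. The r of these genes over the WT arrays was 0.818 to 0.940 for Etv1, -0.013 to 0.954 for Etv5 and 0.233 to 0.785 for Etv4.

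The Capicua complex and the other genes held down by Capicua or induced by ERK were measured beside the PEA3 genes, from lists given with all their counts. Cic was at 9.92 to 10.03 in Atxn1l knockouts and 9.77 to 9.96 in their WT lungs (log2 change 0.14, SE 0.05, limma adjusted p = 0.527), and Atxn1 changed by 0.08 (adjusted p = 0.726). On the arrays labelled Atxn1 knockout Cic differed by 0.05 and Atxn1l by 0.02, without passing. Of 20 measured Capicua targets and ERK feedback genes, the PEA3 genes left out, none rose or fell in the Atxn1l knockout by limma at the adjusted threshold, 13 were above 0, 2 had an unadjusted p under 0.05, and the median was 0.04. Over all probe sets 0.0424% passed, 51.3% were above 0, 8.50% (1802) had an unadjusted p under 0.05 and the median was 0.003. Ccnd1, a cyclin of the G1 phase, was at 11.87 to 11.98 in Atxn1l knockouts and 11.67 to 11.86 in WT lungs (0.14, adjusted p = 0.527). Spred3, an inhibitor of RAS signalling, had 0.13 (adjusted p = 0.571). Egr1, an immediate early gene, had -0.48 with wide spread (SE 0.22, adjusted p = 0.602), and Dusp6, the cytoplasmic ERK phosphatase, 0.06 (adjusted p = 0.843).

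In the Atxn1 knockout none of these 20 genes passed by limma, 17 were above 0, 1 had an unadjusted p under 0.05, against 1.22% of all probe sets, and the median was 0.05. That gene, Dusp4, a nuclear phosphatase of ERK, was at 9.40 to 9.61 on the arrays labelled Atxn1 knockout and 9.19 to 9.31 on their WT arrays (0.25, SE 0.07, limma adjusted p = 0.9999). Spry1, a feedback inhibitor of receptor tyrosine kinases, was at 12.02 to 12.10 against 11.89 to 11.98, and Dusp6 had a value of 0.01.

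Upstream of the PEA3 genes, the 7 measured FGF ligands included 2 above 0 in Atxn1l knockout lungs, and their median log2 change was -0.09, with none past the threshold of limma and 2 with an unadjusted p under 0.05, against 8.50% of all probe sets. Fgf7, made by lung mesenchyme for epithelial FGFR2, was at 9.42 to 9.52 in Atxn1l knockouts and 9.57 to 9.79 in their WT lungs (-0.20, SE 0.06, adjusted p = 0.419). Fgf10, the ligand of branching, was at 9.54 to 9.82 and 9.76 to 9.98 (-0.17, SE 0.07, adjusted p = 0.562). Fgf1, another ligand of these receptors, had -0.10 (adjusted p = 0.590). The mean of the 7 ligands was 9.40 to 9.49 in Atxn1l knockouts and 9.51 to 9.56 in their WT lungs, separate by little. In the Atxn1 knockout the ligand median was 0.06, with 5 of 7 above 0 (-0.009 without WT replicate 3), Fgf7 at 0.07 and Fgf10 at 0.10, none past the threshold.

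Of 7 FGF receptors and Ret components none passed in either set, with medians of 0.004 in the Atxn1l and 0.03 in the Atxn1 knockout. Fgfr2 had -0.04 (adjusted p = 0.904) and 0.01, and Gfra1, the GDNF co-receptor of Ret, 0.17 (adjusted p = 0.495) and 0.03. Of 13 genes of the cascade from RAS to ERK none passed either, with medians of -0.001 and 0.03. Rps6ka3, an ERK-activated kinase, had -0.11 (adjusted p = 0.579) and Map2k2, a kinase of ERK, 0.12 (adjusted p = 0.594) in the Atxn1l knockout. Of 7 genes for the turnover of PEA3 proteins by the COP1 ubiquitin ligase none passed, with medians of 0.02 in both knockouts and Cop1 itself at 0.02 (adjusted p = 0.973) and 0.07. Of all probe sets 0.0424% passed in the Atxn1l set and 0.0% in the Atxn1 set, so the lack of a call does not set these lists apart.

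Of 20 genes reported downstream of PEA3 factors, none passed in either knockout, 10 were above 0 in the Atxn1l and 12 in the Atxn1 knockout, and the medians were 0.01 and 0.02. Of all probe sets 0.0424% and 0.0% passed, so the lack of a call does not set these genes apart, and 51.3% and 47.3% were above 0. An unadjusted limma p under 0.05 was found for 3 of the 20 in the Atxn1l set, all upward, against 8.50% of all probe sets in either direction. In the Atxn1 set it was found for 1, against 1.22%. Plau, the urokinase activator of plasminogen, was at 7.45 to 7.55 in Atxn1l knockouts and 7.26 to 7.35 in their WT lungs (0.17, SE 0.05, adjusted p = 0.366). Shh, the epithelial hedgehog signal, was above all WT arrays in both sets, at 9.89 to 9.93 against 9.79 to 9.87 (Atxn1l set, 0.08, adjusted p = 0.630) and at 10.64 to 10.71 against 10.52 to 10.60 (Atxn1 set, 0.13, adjusted p = 0.9999). Knockouts lay above all WT arrays for 2.76% of all probe sets in the Atxn1l set and 2.85% in the Atxn1 set. Shh was named for its small p-value among the 20 genes. The metalloproteinase Mmp9 had 0.74 (SE 0.32, adjusted p = 0.569) in the Atxn1l and -0.43 in the Atxn1 knockout. Its highest value in each set, 10.30 and 10.70, fell among arrays of the group that also held the highest neutrophil mean. Mmp14, a membrane-bound metalloproteinase, had 0.12 (adjusted p = 0.587) and 0.03.

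**Figure D5:**
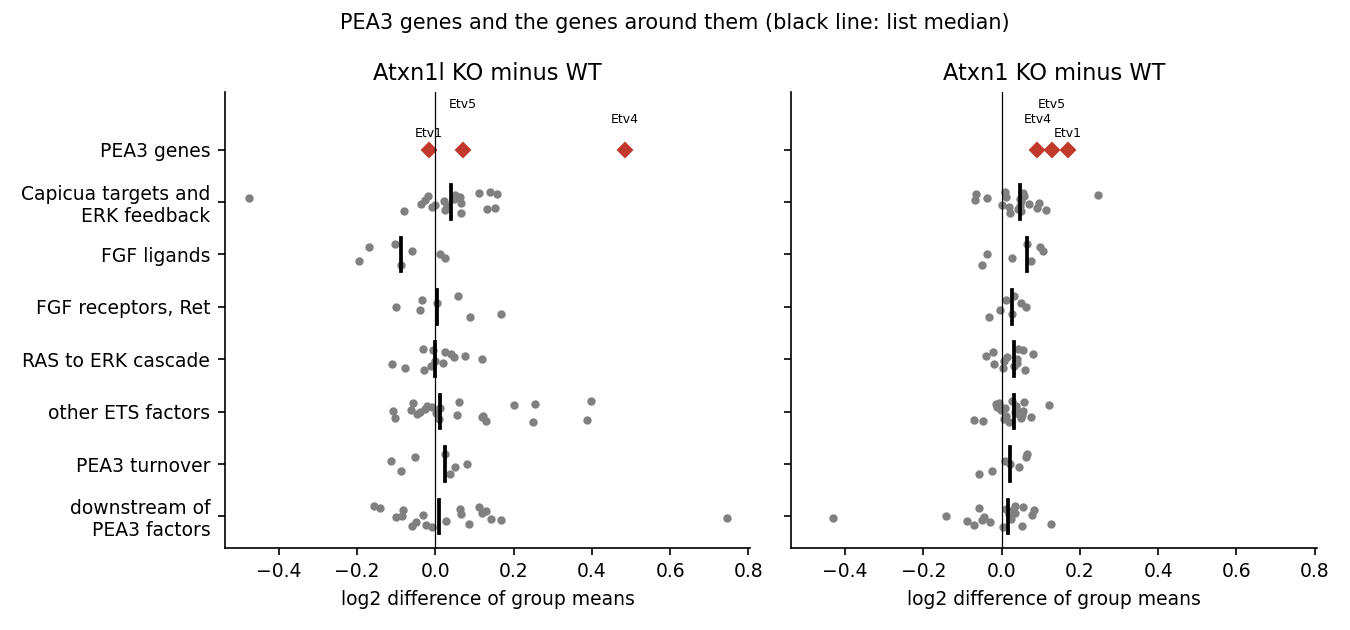
Log2 difference of group means, knockout minus WT, for the PEA3 genes (red diamonds) and each gene of 7 lists (grey points), with list medians as black lines, in the Atxn1l set (left) and the Atxn1 set (right). Etv4 in the Atxn1l set lies at 0.48, and every list median in the plot lies between -0.09 and 0.06.

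The rest of the ETS family was compared because its members share the DNA-binding domain. Of 22 measured ETS genes outside the PEA3 subfamily, none passed in either knockout by limma. In the Atxn1l set 0.0424% of all probe sets passed, so the lack of a call among 22 genes does not set them apart from other probe sets. In that set 13 of the 22 were above 0, 5 had an unadjusted p under 0.05, all upward, and the median was 0.01, beside 8.50% of all probe sets at that unadjusted p in either direction. The mean of the 22 was 9.70 to 9.75 in Atxn1l knockouts and 9.64 to 9.69 in their WT lungs, separate by little. Ehf, an ETS factor of epithelia, was at 9.01 to 9.48 in Atxn1l knockouts and 8.63 to 9.03 in their WT lungs (0.40, SE 0.11, adjusted p = 0.388). Spi1, which encodes the myeloid factor PU.1, was at 9.65 to 10.28 against 9.47 to 9.55 (0.39, SE 0.11, adjusted p = 0.403). Spic, an ETS factor of red pulp macrophages, had 0.25 (adjusted p = 0.420) and Elf4 0.20 (adjusted p = 0.432). Erf, an ETS repressor that ERK removes from the nucleus, had -0.06 (adjusted p = 0.824). In the Atxn1 knockout 16 of the 22 were above 0 with a median of 0.03, Ehf at 0.03 and Spi1 at -0.07.

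Markers of cell types were set beside the members, since a whole-lung level follows the makeup of the tissue. Macrophage markers, like Etv4, were mostly higher in Atxn1l knockout lungs than in their WT lungs. There 10 of 11 were above 0, against 51.3% of all probe sets, and their median was 0.55. Msr1 (0.69, limma adjusted p = 0.0197) and Chil3 (1.46, limma adjusted p = 0.0210) rose. The macrophage marker mean was 9.43 to 9.94 in Atxn1l knockouts and 8.99 to 9.12 in their WT lungs. Its highest array was knockout replicate 1, at 9.94, where Etv4 was 8.39, and knockout replicate 2, with the highest Etv4, had 9.43. All 11 of 11 neutrophil markers were above 0 (median 0.97), none passing, and their mean was 8.69 to 10.35 in Atxn1l knockouts against 8.10 to 8.83 in WT lungs. Without knockout replicate 1 the median was 0.39 for neutrophil and 0.42 for macrophage markers. Without knockout replicate 1, which stood highest in both, the Etv4 change was 0.49 (limma adjusted p = 0.0140). The other knockouts still had macrophage means of 9.43 to 9.53, above all WT lungs. The part of either cell type in the Etv4 result was not tested.

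Markers of the epithelia in which PEA3 genes are known moved little. In the Atxn1l knockout the medians were -0.04 for 11 alveolar type 2 genes, -0.03 for 8 alveolar type 1 genes and -0.01 for 7 airway genes. None of them passed, where 0.0424% of all probe sets did. Lamp3, of type 2 lamellar bodies, had -0.09 (adjusted p = 0.651), Clic5, of type 1 cells, -0.13 (adjusted p = 0.535) and Foxj1, of ciliated cells, 0.16 (adjusted p = 0.631). In the Atxn1 knockout these medians were 0.02, 0.05 and -0.03, with no call. The type 1 mean was 12.46 to 12.48 on the arrays labelled Atxn1 knockout and 12.39 to 12.43 on their WT arrays, in the same direction as the values of the 3 members there, and its median was 0.03 without WT replicate 3. The mesenchymal mean was likewise separate, up to 12.03 on the arrays labelled Atxn1 knockout and at 11.97 to 11.99, below all of these, on their WT arrays, with 10 of 10 genes above 0. Of all single probe sets in this set 47.3% were above 0. Groups were separate for 4.75% of them, with knockouts above WT for 2.85%. These means come from 19 lists, and separate groups of 3 arrays cannot give an exact permutation p below 0.1. Of the endothelial genes 7 of 8 were above 0, with overlapping means of 12.41 to 12.44 and 12.37 to 12.43. The part of these cell types in the values of the members was not tested.

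Other tissues gave no call in either set, where 0.0424% (Atxn1l) and 0.0% (Atxn1) of all probe sets were called. Mesenchymal genes had medians of 0.01 and 0.02 over 10 genes in the Atxn1l and Atxn1 knockouts, with Tcf21 at -0.23 (adjusted p = 0.420) in the Atxn1l knockout, and endothelial genes -0.02 and 0.03 over 8, with Emcn at -0.19 (adjusted p = 0.390). Heart muscle, where Etv1 is known, was followed by 8 genes, which had medians of 0.05 and -0.25, and their mean ranged from 8.51 to 8.91 in Atxn1l knockouts and 8.09 to 9.14 in their WT lungs. In the Atxn1 set that mean was 9.28 to 9.80 in knockouts and 9.03 to 9.99 in WT lungs. Neuronal and glial genes had medians of 0.04 and -0.05 over 6, skeletal muscle genes -0.02 and -0.05 over 8, and thymus and lymphocyte genes 0.08 and -0.06 over 7. In the Atxn1 set macrophage markers had a median of 0.05, with 9 of 11 above 0, and 0.14 without WT replicate 3. Neutrophil markers there had a median of -0.30, with 0 of 11 above 0. Without WT replicate 3 that median was 0.32, so its sign rested on this array.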

How the data were processed

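Lung RNA of 14 mice was hybridised to 14 arrays, 100 ng each. The authors deposited log2 levels after RMA, run separately for the 8 arrays of the Atxn1l set and the 6 of the Atxn1 set, per the series' design text in the labels. RMA and limma are named in the submitters' processing notes. Versions and the probe set definition are not given in the sources used here. Separate normalization offsets the sets, so levels were compared within a set. Only the knockout effects, each against its own WT arrays, were compared between the sets. The number of arrays limits the precision.

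Of 21212 probe sets, 18786 had 1 gene symbol, 6 several and 2420 none in the platform's gene table. For 18784 genes 1 probe set each was used. Of 211 list entries 196 matched a measured gene, giving 194 memberships in 19 lists after duplicates were removed. Linear models without covariates came from limma 3.58.1 (lmFit and eBayes, R 4.3.3), two-sided and adjusted by Benjamini-Hochberg over all probe sets. Exact permutation tests used scipy 1.17.1 in Python 3.11.15. The limma step was tested on simulated data. Lists were described by counts and medians, without a set test. The sequences are RefSeq windows.

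The members and lists were chosen with earlier results of these data known. Named genes were the members, the Capicua complex, up to 4 genes of smallest p per list, and the 5 genes closest to each member. Dusp6, Spry1, Fgfr2, Cop1, Erf, Mmp14 and Chst4 were named in addition, after their values were seen. For some lists fewer than 4 are named. Protein identity of the members was not analysed here. Alternatives were a replicate block, an Xist covariate, array weights, a robust trended prior, removal of the dimmest probe sets (mean level under the 40th percentile), 3 normalizations (cyclic loess, median centring, joint quantile) and leaving out each array.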

Additional observations from a re-analysis of the deposited data

Results flagged for a closer look

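The Etv1 level of Atxn1l knockout replicate 1, 10.93, lay far below the other 3 knockouts at 11.21 to 11.22, a gap larger than Dixon's critical value for 4 samples allows. The 3 members in the knockout and WT groups of the Atxn1l set, 6 groups of 4 arrays, were examined in this way, and chance marks about 1 in 20 groups. This array also had the highest neutrophil (10.35) and macrophage (9.94) marker means of its set, and their part in the Etv1 value was not tested.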

How the results depend on the processing

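The Etv4 change in the Atxn1l knockout kept its sign in all 16 alternatives, at 0.44 to 0.48 under 8 other settings and 0.45 to 0.50 over the 8 fits without 1 array, with an adjusted p of 0.0140 to 0.0701 in those fits. It no longer passed with the replicate block (0.48, adjusted p = 0.0880) or without knockout replicate 4, WT replicate 1 or WT replicate 2. The labels' replicate numbers were not taken as pairs, since no label ties an array to its pair. Deviations of same-numbered arrays from their group means correlated at 0.04 to 0.38 (Atxn1l) and -0.42 to 0.42 (Atxn1). Of the knockouts 3 of 7 correlated best with their own number. With so few arrays this cannot decide whether the numbers mark pairs. If they do, the fit with the block, where Etv4 did not pass, is the paired one. Called probe sets numbered 2 with the block, against 9, and 2 to 25 without 1 array in the Atxn1l set. They numbered 1 with array weights, against 0, in the Atxn1 set. For the difference between knockouts they numbered 1 with the block, 4 with array weights, 1 with the filter on dim probe sets and 1 to 2 without 1 array, against 2. Etv1 in the Atxn1l knockout, at -0.02, was 0.013 with array weights and -0.067 to 0.055 without 1 array. The Etv5 difference between knockouts ranged from -0.10 to 0.022 without 1 array. In the Atxn1 set, without 1 array, Etv4 minus Etv1 changed by -0.18 to 0.040, Etv4 minus Etv5 by -0.11 to 0.082 and Etv5 minus Etv1 by -0.10 to 0.0245. None of these passed in any setting, and the causes were not tested. No detection calls were used here, so how far signal stood above background is unknown.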
